A study of Mus musculus with 18 samples.

Results

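BMAL1 binding in mouse kidney was set against BMAL1 binding in mouse heart through the 2 peak lists that the authors made by chromatin immunoprecipitation and sequencing (ChIP-seq), 1 list per tissue. A kidney and a heart peak with at least 1 bp in common formed a shared pair, and every peak received its percentile by score in its own list. The regions described are the 746 shared pairs, the 120 kidney peaks of the top 10% by score with no heart peak, and the 12 heart peaks of the top 10% with no kidney peak. These are 878 of the 5807 regions with a kidney or heart peak, and the series holds 11366 peaks in 3 lists. Each gene named is the nearest protein-coding gene within 50 kb of a peak, which is a label for the site and no statement that BMAL1 acts on that gene.

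All samples came from wild type C57BL/6 mice aged 3 to 6 months, entrained to alternating 12 h light and 12 h dark periods with free access to food and water. Kidney, heart and liver were taken from the same animals, 3 mice per tissue, at ZT06, the middle of the light phase, so a single time of day is represented. Whole tissue was fixed with 1% formaldehyde, and BMAL1-bound chromatin was pulled down with an affinity-purified chicken antibody to the N-terminal domain of the mouse protein. Each tissue has 3 ChIP and 3 input libraries, and its list was made from all of them together. No value is therefore given per animal, no comparison has an error between animals, and read depths are unknown. Intervals are exact Clopper-Pearson 95% intervals and cover counting error only. For the heart input, the source label says kidney, while title and tissue label say heart. Whether the heart list was made against kidney input cannot be told apart here, and this touches every comparison with heart.

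BMAL1 pairs with CLOCK or its relative NPAS2, and the pair binds E-boxes, short sites with the core CACGTG. It drives the Per and Cry genes, whose proteins inhibit it in turn, and the Nr1d genes, which repress the BMAL1 gene Arntl. Through these and through the PAR bZip factors Dbp, Tef and Hlf it acts on metabolism and transport. In the kidney the clock is known for daily rhythms of filtration, salt and water handling, and in the heart for rhythms of fuel use, ion channels and the response to load.

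The kidney list held 4034 peaks of 188 bp and the heart list 2519 peaks of 198 bp. Kidney scores ran from 14 to 304 with a median of 28, and heart scores from 16 to 375 with a median of 25. What the score measures is not stated, and it served only to rank peaks within a list. A percentile is the share of peaks of the same list with a lower score with ties split evenly, so the 233 kidney peaks tied at the lowest score stand at 2.89 and the 305 heart peaks tied at theirs at 6.05. Because the lists differ in length, a percentile difference describes a site's place in 2 lists and is no measure of a change in binding.

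To show what lies under these peaks, promoter stretches covered by a peak are printed from RefSeq (GRCm38.p6), 5′ to 3′ on the strand of the gene. Capitals mark the E-box CACGTG and the related box CACGTT or its reverse complement AACGTG. All stretches lie upstream of the start site and outside every annotated gene. They are examples picked after the values were seen, from the few peaks whose stretch meets these conditions. The first is from Bhlhe41, a clock repressor gene bound at a similar percentile in both tissues, with a kidney score of 107 and a heart score of 149 at this site.
Bhlhe41, chr6:145865474-145865661, minus strand: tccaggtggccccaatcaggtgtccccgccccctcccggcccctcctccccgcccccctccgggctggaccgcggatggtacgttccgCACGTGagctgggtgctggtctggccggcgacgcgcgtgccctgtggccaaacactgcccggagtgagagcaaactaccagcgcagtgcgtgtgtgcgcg
The next are from kidney peaks of the top 10% with no heart peak. Dvl2 encodes a Wnt signal carrier (score 103), Cdk4 a cell-cycle kinase (85), Atg3 an autophagy enzyme (85), Slc20a1 a phosphate transporter (84) and Lrp2 the endocytic receptor megalin of the proximal tubule (86).
Dvl2, chr11:70000439-70000591, plus strand: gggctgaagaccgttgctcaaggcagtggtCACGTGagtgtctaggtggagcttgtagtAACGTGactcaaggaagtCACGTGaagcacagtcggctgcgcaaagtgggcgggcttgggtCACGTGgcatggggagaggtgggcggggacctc
Cdk4, chr10:127063404-127063534, plus strand: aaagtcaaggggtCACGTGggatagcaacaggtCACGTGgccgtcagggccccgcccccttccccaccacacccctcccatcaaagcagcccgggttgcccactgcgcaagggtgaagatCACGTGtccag
Atg3, chr16:45158675-45158828, plus strand: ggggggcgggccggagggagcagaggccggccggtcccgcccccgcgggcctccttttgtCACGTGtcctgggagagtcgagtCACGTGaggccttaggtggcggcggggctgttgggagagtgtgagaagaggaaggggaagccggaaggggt
Slc20a1, chr2:129198551-129198738, plus strand: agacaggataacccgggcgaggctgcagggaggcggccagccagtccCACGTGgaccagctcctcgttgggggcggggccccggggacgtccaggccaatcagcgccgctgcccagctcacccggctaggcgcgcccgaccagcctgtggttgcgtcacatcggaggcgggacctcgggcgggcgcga
Lrp2, chr2:69586151-69586279, minus strand: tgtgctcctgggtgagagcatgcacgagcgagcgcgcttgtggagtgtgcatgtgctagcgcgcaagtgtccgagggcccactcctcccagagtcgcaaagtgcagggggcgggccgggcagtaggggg
The last are from shared sites that stood at least 25 percentile points apart. Slc27a2, a fatty acid transporter and acyl-CoA synthetase, and Ddo, which oxidizes D-aspartate, stood higher in kidney. Slc16a1, a lactate and pyruvate transporter, and Rcor2, a corepressor, stood higher in heart. Both of these hold an E-box, but it was in only 6 of the 21 promoter windows under pairs that stood higher in heart. The stretches of Jak2, Acvr2a, Ank, Hnrnpa0, Tmem117 and Gm38440, also higher in heart and outside genes, held none of the letters searched.
Slc27a2, chr2:126552845-126553023, plus strand: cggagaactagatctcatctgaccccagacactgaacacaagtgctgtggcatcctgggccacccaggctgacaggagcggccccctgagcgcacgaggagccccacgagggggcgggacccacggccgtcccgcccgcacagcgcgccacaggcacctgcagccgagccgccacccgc
Ddo, chr10:40629776-40629963, plus strand: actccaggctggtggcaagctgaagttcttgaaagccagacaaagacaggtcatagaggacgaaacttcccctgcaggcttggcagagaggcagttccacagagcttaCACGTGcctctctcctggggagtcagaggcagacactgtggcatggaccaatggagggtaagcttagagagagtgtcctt
Slc16a1, chr3:104638444-104638631, plus strand: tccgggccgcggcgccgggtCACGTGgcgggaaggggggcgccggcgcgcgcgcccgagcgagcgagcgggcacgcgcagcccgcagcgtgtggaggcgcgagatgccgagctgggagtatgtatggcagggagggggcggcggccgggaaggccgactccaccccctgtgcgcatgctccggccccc
Rcor2, chr19:7267199-7267386, plus strand: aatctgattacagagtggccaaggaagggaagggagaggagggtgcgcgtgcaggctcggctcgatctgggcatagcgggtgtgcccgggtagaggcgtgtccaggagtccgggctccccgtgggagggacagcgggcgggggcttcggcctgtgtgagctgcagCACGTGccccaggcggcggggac
The stretches of Dvl2 and Cdk4 each hold 3 copies of CACGTG, and that of Dvl2 also holds 1 copy of AACGTG. Atg3 has 2 copies of CACGTG, and Slc20a1, Ddo, Slc16a1, Rcor2 and Bhlhe41 have 1. The letters searched were found in neither the Lrp2 nor the Slc27a2 stretch.

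The first comparison asked how far kidney and heart peaks coincided along the 2 lists. The highest-scoring sites of both tissues were largely the same sites, and overlap thinned out down each list. Over the whole lists, 18.5% of kidney peaks (746 of 4034) and 29.6% of heart peaks (746 of 2519) were shared. Above percentile 90, 70.7% of kidney peaks (289 of 409, 66.0 to 75.0%) overlapped a heart peak and 95.6% of heart peaks (239 of 250, 92.3 to 97.8%) overlapped a kidney peak. Below percentile 10 these shares were 3.00% (12 of 400) and 0.66% (2 of 305). The first 94 kidney peaks by rank all had a heart peak, and the first 133 heart peaks all had a kidney peak. Centres of shared peaks lay a median of 19.5 bp apart, and at most 186 bp.

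**Figure D1:**
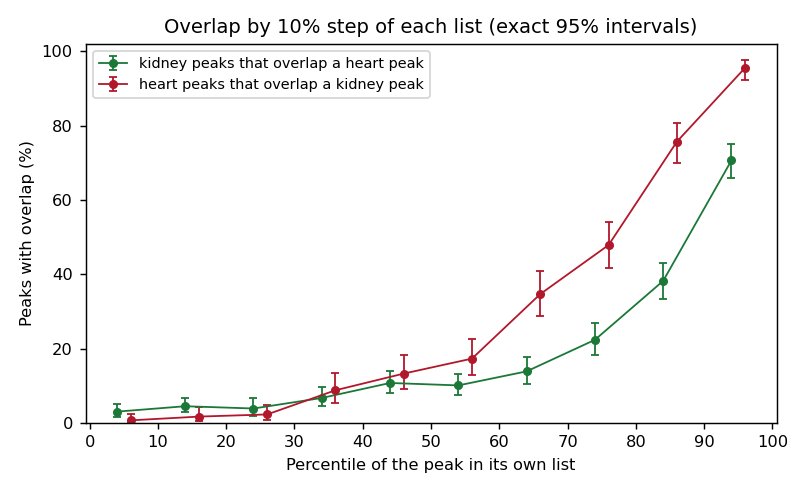
Share of peaks that overlap a peak of the other tissue (percent, vertical axis) in steps of 10 percentile points in their own list (horizontal axis), kidney in green and heart in red, with exact 95% intervals that cover counting error only. Kidney climbs from 3.00% in the lowest step to 70.7% in the highest, and heart from 0.66% to 95.6%.

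The clock genes head both lists and set the scale for everything else. Of the 20 clock genes and outputs listed, 16 had a shared pair, against 3.09% of all 21883 protein-coding genes. A kidney peak lay near 18 of them and a heart peak near 19, where 13.9% and 9.5% of all protein-coding genes had one. Nr1d1, which encodes the repressor REV-ERBα, was first in both lists (score 304 in kidney and 375 in heart). Nr1d2, its paralog, was second in both (301 and 324). The output factor genes followed closely. Dbp reached 285 in kidney and 308 in heart, Tef 277 and 297, and Hlf 258 and 300. Among the genes of the negative arm, Per1 reached 254 in kidney and 262 in heart, Per2 232 and 241, and Per3 244 and 273. Cry1 reached 188 and 200, and Cry2 246 and 274. Of the E-box repressors, Bhlhe40 reached 219 and 250 and Bhlhe41 181 and 183. The circadian repressor gene Ciart had scores of 219 and 220, and Wee1, a kinase of the cell cycle, had 107 and 106.

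The 32 shared pairs at clock genes had a median percentile difference, kidney minus heart, of 0.19 points, and none reached 25 points. Over all 746 pairs the median was 0.20 points. Kidney stood higher in 27 of the 32 pairs at clock genes, and in 398 of all 746. Near the top, the longer kidney list gives a higher percentile at equal rank. Nr1d1, first in both lists, stood at 99.988 in kidney and 99.980 in heart. The 27 of 32 therefore cannot be read as a lean towards kidney. The largest difference was at a site inside Per2, 13.1 kb from its start, with a kidney score of 69 (percentile 88.5) and a heart score of 32 (63.8), a difference of 24.7 points. The start site of Per2 differed by far less, at percentiles 99.67 and 99.50. At Nfil3, a repressor that opposes Dbp, kidney scored 100 and heart 51 at a site inside the gene, 13.7 points apart. One of the pairs at Hlf, inside the gene, had scores of 110 in kidney and 64 in heart, 9.28 points apart.

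A few clock genes had peaks at different places in the 2 tissues. At Arntl a kidney peak (score 24) lay inside the gene and a heart peak (16) lay 18.9 kb outside it. At Rora, an activator of Arntl, the kidney peak (44) and both heart peaks (17 and 18) were at separate sites inside the gene. Clock had only a heart peak, of score 18, and Npas2 had none. Close to shared sites, Tef had an additional kidney peak (72) with the nearest heart peak 0.46 kb away, and Wee1 an additional heart peak (49) with the nearest kidney peak 0.57 kb away.

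The second comparison asked which shared sites stood at different places in the 2 lists. Most pairs were close, with quartiles of −7.82 and 4.23 points and an SD of 17.3 over pairs. Kidney stood higher by at least 25 points in 38 of 746 pairs (5.09%) and heart in 75 (10.1%). That split depended on how the percentile was formed. With percentiles taken among the 746 pairs alone it was 62 against 45, and with the kidney list shortened to the length of the heart list it was 20 against 130. With percentiles among the pairs alone, none of the 113 pairs changed its direction. The shortened kidney list retained 67 of them and lowers every kidney percentile, so heart-higher pairs could not reverse there. The size of the difference was smaller towards the head of the lists, in part by construction, since a mean percentile near 100 leaves little room for one. Its median size was 27.2 points in the 80 pairs with a mean percentile under 50, and 15.04 points in 182 pairs between 50 and 75. It was 5.87 points in 244 pairs between 75 and 90, and 1.34 points in the 240 pairs above 90, where a difference of 25 points cannot occur.

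**Figure D2:**
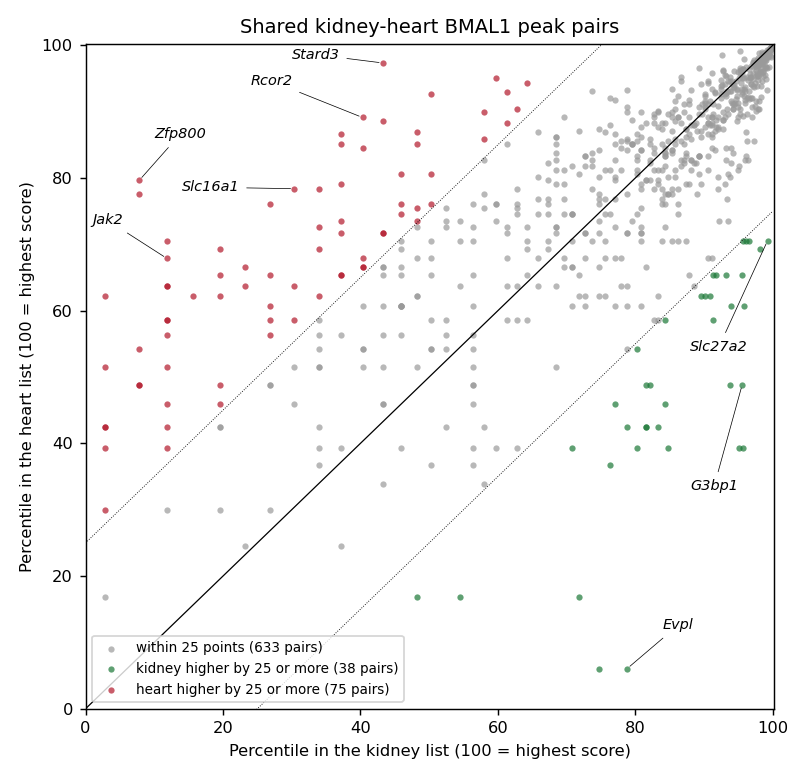
Percentile in the kidney list (horizontal) against percentile in the heart list (vertical) for the 746 shared pairs, where 1 point is 1 pair, the solid line is equality and dotted lines mark 25 points. The 38 green pairs stand higher in kidney, the 75 red pairs higher in heart, and the grey pairs close up towards the upper right corner.

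The shared sites that stood highest in kidney relative to heart were spread over genes of varied function, and several had no protein-coding gene within 50 kb. At Evpl, the gene of the cell-envelope protein envoplakin, the kidney score was 50 and the heart score 16, the lowest of its list, a difference of 72.8 points at the start site. Pipox, which encodes a peroxisomal oxidase of sarcosine and pipecolate, had scores of 42 and 17 (55.0 points). G3bp1, a core protein of stress granules, had 105 in kidney and 25 in heart (46.7 points), 1.44 kb outside the gene. Klc3, a kinesin light chain, had 91 and 25 (44.9 points) at its start site. Fam107a, an actin-associated protein gene, had 60 and 22 (45.5 points), and Vps13d, a lipid transfer protein gene, had 57 and 23 (40.8 points). The 4 sites of this group without a gene lay at chr10:95623272-95623459 (45 against 16), chr8:12486803-12486990 (106 against 22), chr6:94999201-94999388 (101 against 22) and chr16:76455128-76455315 (52 against 22). The highest kidney score among all 38 was at Slc27a2, 184 in kidney and 37 in heart (28.7 points), 0.0855 kb from the start. It was the one gene of the 25 listed for lipid metabolism with a pair past 25 points. At the other listed lipid genes with shared pairs the tissues were close. Acsl1, an acyl-CoA synthetase, had 88 and 89, the lipoprotein lipase inhibitor Angptl4 98 and 101, and the triglyceride synthesis gene Dgat2 130 and 131. The fatty acid carrier Fabp3 had 148 and 101, 3.84 points apart.

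Shared sites that stood higher in heart by at least 25 points have, by that limit, a lower-ranking kidney peak. In the 38 kidney-higher pairs the heart peak was likewise the lower one, with heart scores from 16 to 37. Kidney scores among the 75 heart-higher pairs ran from 14 to 36, and heart scores from 19 to 133. Stard3, a cholesterol carrier of late endosomes, had the highest heart score of the group, 133 against 25 in kidney (54.1 points lower in kidney), inside the gene. Zfp800, a zinc finger gene, had 48 in heart and 15 in kidney, with a kidney-minus-heart difference of −71.8 points. Ccbe1, needed for lymphatic vessel growth, had 45 and 15 (−69.7 points). Jak2, the cytokine receptor kinase, had 35 and 16 at its start (−56.0 points). Acvr2a, a receptor for activins, had 36 and 18 (−49.6 points), also at its start, and Smtnl2, a smoothelin relative, had 43 and 20 (−49.3 points). The others of the 10 most negative were Lactbl1 (−59.4 points), Gm38469 (−58.7 points), Sec14l1 (−52.0 points) and Bcor (−52.0 points), a corepressor gene. Further down, and named after their values were seen, stood the immediate-early nuclear receptor Nr4a1 (63 in heart and 23 in kidney, −49.3 points), Rcor2 (72 and 24, −48.8 points) and Slc16a1 (46 and 21, −48.0 points). Several of these differences rest on kidney peaks tied with many others near the lowest score. Of the 75 heart-higher pairs, 24 were still at least 25 points apart when only the shared pairs were ranked. Stard3, Rcor2, Nr4a1, Zfp800, Ccbe1 and Smtnl2 were among those, at −79.4, −54.8, −48.9, −40.3, −36.7 and −30.2 points. Lactbl1 (−16.6 points), Gm38469 (−24.5 points), Jak2 (−21.5 points), Sec14l1 (−16.4 points), Bcor (−16.4 points) and Acvr2a (−21.3 points) were not. Of the 38 kidney-higher pairs, 36 were.

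There were 36 genes with several shared sites. Of these, 8 had a pair past 25 points, and none had pairs past it in both directions. Among all 746 pairs, 5.09% were past it with kidney higher and 10.1% with heart higher. Genes with several shared sites were not compared with genes that had a single one. Both pairs were past it at Bcor (−46.7 and −52.0 points) and at Nfia, a nuclear factor I gene (−26.2 and −47.8 points), each time higher in heart. With only the shared pairs ranked, the Bcor pairs stood at −10.6 and −16.4 points and the Nfia pairs at −12.2 and −45.3 points, so 1 of these 4 still passed it. Stk39, which encodes the kinase SPAK that activates salt cotransporters, was mixed. Its start site had scores of 22 in kidney and 31 in heart (−28.4 points), while a site inside the gene had 28 and 21 (13.6 points).

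Just outside the limit of 25 points lay Pip4k2c and the site inside Per2 on the kidney side, both at 24.7 points, and Lsamp and Lgals8 on the heart side, both at −24.7 points. Just inside lay Lima1 at 25.2 points and Plcb3 at −25.3 points.

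The third comparison took the peaks of the top 10% of one list with no overlap in the other. Kidney had many such sites and heart had few, and their genes were of mixed function. Kidney sites lay at the proximal tubule genes Hnf4a and Lrp2 but also at Xirp1 and Jph1, genes of striated muscle, and heart sites at Tcap but also at Nr3c2 and Wnk2. Of the 20 nephron genes 1 had such a kidney site, and of the 12 kidney lineage factors 1. Of the 20 contractile and calcium genes 1 had such a heart site. Of all 21883 protein-coding genes, 117 had such a kidney site and 11 such a heart site. In the kidney list 29.3% of the top 10% (120 of 409, 24.97 to 34.0%) had no heart peak, against 81.5% of all kidney peaks. In the heart list 4.65% (12 of 258, 2.43 to 7.98%) had no kidney peak, against 70.4% of all heart peaks. The kidney list is the longer one. Among the top 250 of each list with ties included, 19.1% of 257 kidney peaks had no heart peak and 4.40% of 250 heart peaks no kidney peak. These peaks were still matched to the whole list of the other tissue, so the difference in length was not removed.

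The highest of the 120 kidney sites was inside Por, the gene of the reductase that passes electrons to microsomal cytochromes P450, at chr5:135674907-135675094. Its score was 134, rank 95, and the nearest heart peak was 525 kb away. Usp53, a ubiquitin protease relative, followed with a score of 127, and Pacsin2, a membrane-bending protein gene, with 123. The Pacsin2 site lay 8.14 kb outside that gene and covered part of a promoter of 1700001L05Rik. Snx9, a sorting nexin of endocytosis, and Crebrf, a regulator of CREB3, both had 120. The growth factor gene Hdgf and Xirp1, an actin-binding protein gene of striated muscle, had 119, and Atxn3, a deubiquitinase, 118. The Xirp1 site lay 2.37 kb outside the gene. Ndrg1, a stress-responsive gene, and Hmcn2, of the extracellular matrix, had 117. Anxa7, an annexin, had 116, Slc25a39, a mitochondrial glutathione carrier, 114, and the phosphatase genes Dusp12 and Pptc7 both 112. Ddr1, a collagen receptor kinase, had 111, at a site 20.9 kb away.

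Among the genes listed for nephron, lineage and metabolism, the clearest kidney site was inside Hnf4a, at chr2:163540738-163540925. Hnf4a encodes a nuclear receptor that maintains proximal tubule and liver cells. The kidney score there was 97 (percentile 94.6), the nearest heart peak was 163 kb away, and no heart peak was assigned to the gene. Lrp2 had a kidney score of 86 at its promoter, 0.216 kb from the start, and no heart peak. Ppara, the nuclear receptor of fatty acid oxidation, had a kidney score of 86 at its start, 2 weaker kidney peaks (16 and 22) and no heart peak. Ppargc1b, a coactivator of mitochondrial genes, had 3 such kidney sites inside the gene, with scores of 80, 80 and 75, and no heart peak.

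Some other genes of transport and metabolism were picked from the 117 genes of the 120 sites after their values were seen. Car12, a carbonic anhydrase, had a score of 92 and Slc22a4, an organic cation transporter, 87. Prss8, the protease prostasin that activates the epithelial sodium channel, had 86. Slc20a1 and Alpl, alkaline phosphatase, had 84. Agxt2, a mitochondrial aminotransferase, and the kinase gene Sgk2 had 81. The sites at Car12, Slc22a4, Slc20a1 and Sgk2 overlapped a liver peak, and those at Prss8, Alpl and Agxt2 did not. They do not stand for a theme. Of the 20 genes listed for salt, water and acid-base transport, 0 had such a kidney site and 1, Nr3c2, such a heart site.

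The 12 heart sites had scores from 75 to 101. Tcap, which encodes the Z-disc protein telethonin, had a heart score of 97, 0.278 kb from an end of the gene, at chr11:98383435-98383632. The nearest kidney peak, 5.48 kb away, was the weak partner of the Stard3 pair described above, so both heart sites of this short interval ranked high where kidney had one low-ranking peak. Pfkl, the liver-type phosphofructokinase, and the kinase gene Wnk2 had 87. Arl8a, a lysosomal GTPase, and Rbm20, the splicing factor of titin, had 83. Ntng2, a netrin relative, had 81 and Lekr1 79. Nr3c2, the mineralocorticoid receptor, had 77 inside the gene, and the ubiquitin ligase gene Rnf144b 76. A site at chr4:47594195-47594392 with no gene within 50 kb also had 76, and Entpd6, a nucleotide hydrolase gene, 75.

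**Figure D3:**
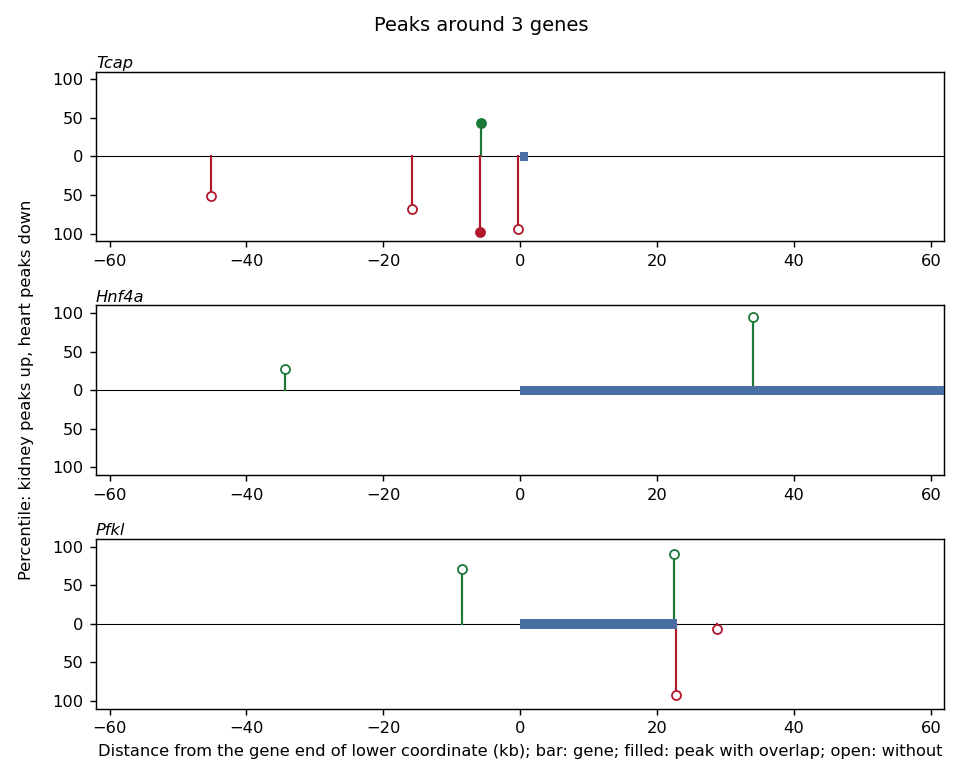
Kidney peaks (green, upwards) and heart peaks (red, downwards) around Tcap, Hnf4a and Pfkl, by distance in kb from the gene end of lower coordinate, with the height giving the percentile in the own list, filled points for peaks with overlap in the other tissue and the bar for the gene. Hnf4a has kidney peaks only, Tcap has an unshared heart peak beside the shared Stard3 pair, and Pfkl has a kidney and a heart peak side by side.

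Some of these peaks had a neighbour in the other tissue. Pfkl was the 1 gene with such a peak in both lists. Its kidney peak (76) and its heart peak (87), both near the start, had centres 0.351 kb apart without overlapping. At Hdgf the unshared kidney peak lay 0.710 kb from a heart peak of score 61 that belonged to a shared pair. A heart peak lay within 10 kb of 10 of the 120 kidney sites, and a kidney peak within 10 kb of 2 of the 12 heart sites. Of the 117 genes named by the kidney sites, 18 had a heart peak elsewhere, and 9 of these had a shared site. The highest of them by kidney score were Usp53, Snx9, Hdgf, Pptc7, Azin1, Gstt2, 2900026A02Rik and Susd6. Their best heart scores were 18, 16, 61, 23, 85, 72, 24 and 23. Azin1 is an inhibitor of antizyme and Gstt2 a glutathione transferase. Of the 11 genes named by the heart sites, Pfkl, Wnk2, Rbm20 and Nr3c2 had a kidney peak, with best kidney scores of 76, 26, 50 and 31, and only that of Rbm20 was a shared site.

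At the lower limit of the kidney top 10%, a score of 75, 10 of 18 peaks had no heart peak. They named Rabgap1l, Shmt1, Usp22, Pim3, Ppargc1b, Bmf, Zmynd8, Gtf3a, Hdac11 and Piezo1. At the next score, 74, 6 of 8 had none, among them those at Prdm1, Smagp, Hnrnpa1, Lap3 and Sec31a. In heart 1 of 8 peaks at score 75 had no kidney peak (Entpd6), and 0 of 8 at score 74.

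The gene lists were then read beside all protein-coding genes, of which 13.9% had a kidney peak and 9.5% a heart peak. Of 20 nephron genes, 7 had a kidney peak (35.0%) and 2 a heart peak (10.0%), the latter near the share of all genes. Lrp2 had the highest kidney score, and the best kidney scores of the others ran from 15 to 27, under the list median of 28. The vitamin B12 receptor gene Cubn had a shared pair, weak in both (16 and 19). Cdh16, a kidney cadherin, had a kidney peak of 27 at its start and a stronger heart peak of 55 inside the gene. Of 12 kidney lineage factors, 6 had a kidney peak (50%) and 2 a heart peak (16.7%), and none was shared. The best kidney scores of these 6 ran from 14, the lowest of the list, to 97 at Hnf4a. Of 20 genes of salt, water and acid-base transport, 8 had a kidney peak (40%) and 6 a heart peak (30.0%). Tsc22d3, a glucocorticoid-induced gene, had 2 shared pairs with its best scores at 138 in kidney and 110 in heart. Slc9a3, the sodium-proton exchanger of the proximal tubule, had kidney peaks only, up to 56. Nr3c2 had its stronger peak in heart (77) and a kidney peak of 31 at another site.

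Of 20 contractile and calcium genes of the heart, 3 had a kidney peak (15%), near the share of all genes, and 4 a heart peak (20.0%), with none shared. Besides Tcap these were Myl2, a ventricular myosin light chain (heart 45), Atp2a2, the calcium pump SERCA2 (heart 37 and kidney 15 at other sites), and Ckm, muscle creatine kinase (heart 24). The calcium channel gene Ryr2 had a kidney peak only (47). Of 12 heart lineage factors, 3 had a kidney peak (25%) and 5 a heart peak (41.7%). Mef2d had 2 shared pairs, with best scores of 99 in kidney and 92 in heart. Gata4, a cardiac zinc finger factor, had peaks at separate sites, 14 in kidney and 26 in heart. Of 15 cardiac ion channel genes, 2 had a kidney peak (13.3%), near the share of all genes, and 3 a heart peak (20.0%). The potassium channel gene Kcnh2 had heart peaks only, up to 35, and Kcnq1 a kidney peak only, of 43.

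Of 30 genes of glucose metabolism, 14 had a kidney peak (46.7%) and 9 a heart peak (30.0%). Pfkfb3, which makes the activator of phosphofructokinase, was strong in both, with best scores of 185 and 204, and Ldha, lactate dehydrogenase A, had 60 and 74. The gluconeogenic genes Pck1 and G6pc had kidney peaks only, up to 35 and 23. Hexokinase 1, Hk1, had a heart peak only, of 42. Of 25 lipid genes, 12 had a kidney peak (48.0%) and 7 a heart peak (28.0%), and all 7 of the latter had a shared pair. The remaining 5 had kidney peaks only: Ppara, Ppargc1b, Ppargc1a, Cpt1a and Ppard. Of 34 markers of endothelium, fibroblasts, smooth muscle, leukocytes, fat and Schwann cells, cells that whole organs hold, 2 had a kidney peak (Smtn and Prdm16, 5.88%) and 4 a heart peak (Kdr, Tie1, Sox10 and Prdm16, 11.8%), with heart scores of at most 40 and kidney scores of at most 51. Which cells carried the binding was not tested.

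The liver list, which played no role in choosing these sites, was read next. Strong kidney sites absent from heart were mostly present in liver, and strong heart sites absent from kidney mostly were not. Of the 120 kidney sites, 77.5% (93, 69.0 to 84.6%) overlapped a liver peak, and 54 of those stood in the top 10% of the liver list. Of the 12 heart sites, 16.7% (2, 2.09 to 48.4%) did, at Nr3c2 (liver percentile 97.8) and Rnf144b (55.0). The contrast ran through the whole lists. Of all peaks, 36.6% in kidney and 26.0% in heart overlapped a liver peak, and of all unshared peaks 29.2% and 7.67%. Shared peaks of the top 10% overlapped a liver peak in 93.8% of kidney and 93.5% of heart cases. Kidney sites without a heart peak in the percentile range of the 12 heart sites, 89.9 to 94.6, overlapped a liver peak in 73.6% of cases (64 of 87, 63.0 to 82.4%). Por, Crebrf, Atxn3, Hnf4a and Ppara were among the kidney sites with a liver peak. Lrp2, Ndrg1 and Hmcn2 were among the 27 without one.

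The shared pairs showed a like contrast. Of the 38 kidney-higher pairs, 68.4% (26, 51.3 to 82.5%) overlapped a liver peak, and of the 75 heart-higher pairs 29.3% (22, 19.4 to 41.0%), against 69.4% of all pairs. The liver percentile was nearer to that of kidney in 21 of the 26 and nearer to that of heart in 5. Among the 22 heart-higher pairs it was nearer to kidney in 11 and to heart in 11. The classes also differ in rank, and liver overlap went with rank. Among pairs with a mean percentile from 50 to 75, the liver share was 73.7% of 19 kidney-higher pairs (48.8 to 90.9%), 45.7% of 129 pairs within 25 points (36.9 to 54.7%) and 35.3% of 34 heart-higher pairs (19.7 to 53.5%), and the intervals of the first and last overlapped. From 75 to 90 the shares were 71.4% of 14, 73.9% of 226 and 75.0% of 4 pairs in the same order, and under 50 they were 40% of 5, 36.8% of 38 and 18.9% of 37. The classes were thus not ordered alike at every rank.

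Position relative to genes also differed between these classes. Of all shared pairs, 64.3% had the centre of their kidney peak within 1 kb of a start site, 20.1% lay elsewhere inside a gene and 15.5% outside. Kidney-higher pairs were at start sites in 28.9% of cases (11 of 38, 15.4 to 45.9%) and heart-higher pairs in 48.0% (36 of 75, 36.3 to 59.8%), against 68.4% of the 633 pairs within 25 points (64.6 to 72.0%). The classes also differ in rank, though not alike in both lists. Median kidney percentiles were 87.2 in kidney-higher pairs, 86.7 in pairs within 25 points and 30.4 in heart-higher pairs. Median heart percentiles were 48.9, 85.6 and 67.9 in the same order. Position went with rank. In the kidney list 64.1% of the top 10% were at start sites, against 42.2% of all peaks, and in the heart list 64.0% against 38.7%. Position was not compared at equal rank. Kidney sites of the top 10% without a heart peak were at start sites in 57.5% of cases (69 of 120) and heart sites without a kidney peak in 2 of 12. Of these 12, 5 lay inside a gene and 5 outside.

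**Figure D4:**
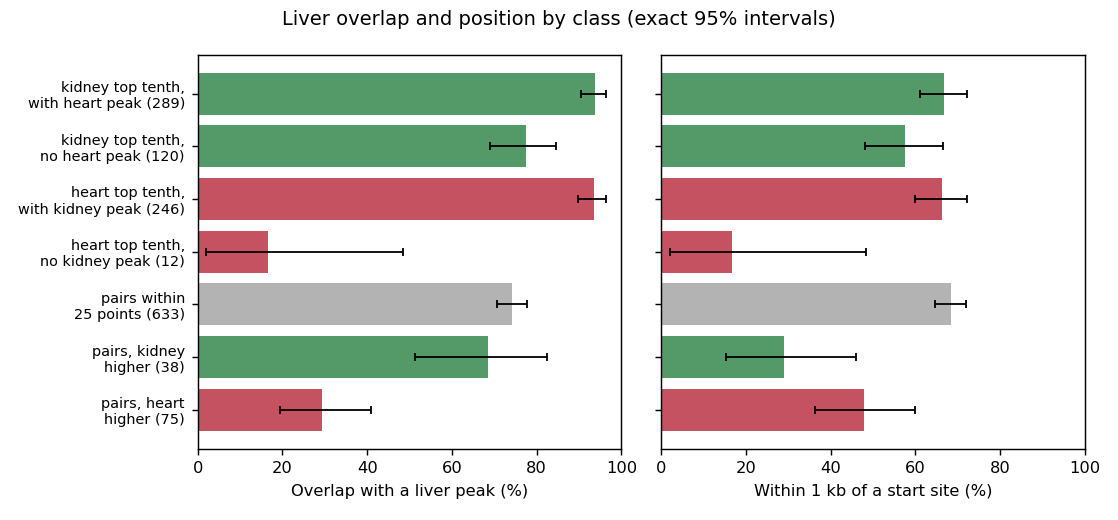
Share of peaks or pairs that overlap a liver peak (left, percent) and that lie within 1 kb of a start site (right, percent) for 7 classes of site, with the number of sites in brackets and exact 95% intervals that cover counting error only. Liver overlap is 77.5% for strong kidney sites without a heart peak and 16.7% for strong heart sites without a kidney peak, and kidney-higher pairs are at start sites in 28.9% of cases.

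Last, the promoter windows under peaks were searched for E-boxes and other motifs. The windows ran from 250 bases before to 50 after a start, on both strands, over 32619 RefSeq windows. CACGTG was in 7.20% of all windows and in 47.7% of the 375 windows under shared pairs (42.6 to 52.9%). It was in 31.3% of 985 windows under kidney peaks with no heart peak (28.4 to 34.3%) and in 19.2% of 323 under heart peaks with no kidney peak (15.05 to 23.9%). In the top 10% of the kidney list the shares were 60.0% of 60 windows without a heart peak (46.5 to 72.4%) and 53.6% of 166 windows with one (45.7 to 61.4%), with intervals that overlap. Under heart-higher pairs it was in 6 of 21 windows, and under kidney-higher pairs in 2 of 6. The window of Pfkl, the one under the 12 heart sites, had none. Median GC content was 67.7% in windows under shared pairs and 53.0% in all windows, and its part in these shares was not tested.

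The other motifs were rare. CACGTT, on either strand, was in 4.72% of all windows, 9.87% of those under shared pairs, 9.34% under kidney peaks without a heart peak and 6.81% under heart peaks without a kidney peak. A tandem of 2 such boxes, CACGTG or CACGTT, 6 or 7 bases apart was in 3 windows under shared pairs and 6 windows in all. The D-box TTATGTAA, bound by Dbp, Tef and Hlf, was in 0.944% of all windows, 1.60% of those under shared pairs and 2 of the 21 under heart-higher pairs. The MEF2 site, searched as its A-rich and T-rich consensus forms, was in 0.276% of all windows, 4 of the 985 under kidney peaks without a heart peak, none under shared pairs and none under heart peaks without a kidney peak.

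**Figure D5:**
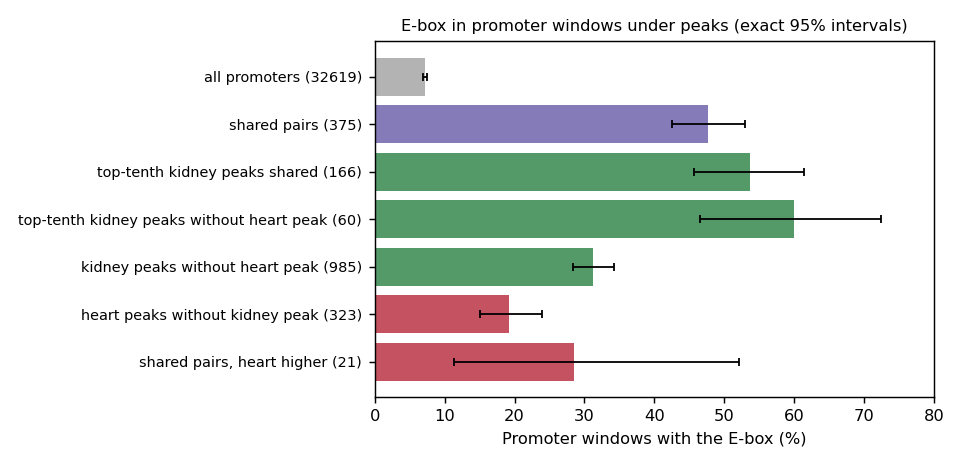
Share of promoter windows that hold the E-box (percent, horizontal axis) by class of peak over the window, with the number of windows in brackets and exact 95% intervals that cover counting error only. All windows stand at 7.20%, those under shared pairs at 47.7%, and those under strong kidney peaks without a heart peak at 60.0%.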

How the data were processed

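BMAL1 ChIP-seq peaks of kidney and heart were compared, with liver as a readout only. The score of each peak was deposited by the authors as a whole number in 1 peak list per tissue, which per the labels was made from all ChIP and input libraries together. Bowtie2, SAMtools, HOMER and mm10 are named, per the submitters' processing notes, without role or version. mm10 is GRCm38, and 42.2% of kidney and 38.7% of heart peaks lay within 1 kb of a RefSeq start site, against 4.09 and 3.29% after a shift of 100 kb. Start sites came from the RefSeq promoter table for 78.9% of protein-coding genes, and both gene ends stood in for the others. Read depth is unknown, and no test was run, since each tissue has 1 pooled list. Where shares carry intervals, the peaks are the units.

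The top 10% held peaks at or above the score of the peak at that rank, ties included. Named were the 10 pairs most apart in each direction, the 15 highest kidney and all heart sites of the top 10% without overlap, the clock genes, listed genes with such sites or the highest scores (up to 5 per list), 8 genes with a peak of the other tissue elsewhere, and sites at a threshold. The members, gene lists (208 genes, all matched by symbol) and alternatives were chosen with earlier results of these data known. Overlap, threshold, percentile base, position window, gene distance and promoter window were varied. Functions were tested on simulated intervals with known answers. Python 3.11.15, pandas 2.3.3, numpy 2.4.6, scipy 1.17.1 and matplotlib 3.10.9 were used. A few of the genes that this rule selects are not reported here. Input libraries were not analysed here.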

Additional observations from a re-analysis of the deposited data

How the results depend on the processing

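Shared peaks made up 20.1% of kidney peaks with centres within 1000 bp, 29.5% in the upper 50% of both lists and 26.9% with equally many top-ranked peaks (18.5% as reported). For heart peaks the last 2 settings gave 45.8 and 26.9% (29.6%). Pairs at least 25 points higher in kidney numbered 62 with percentiles among pairs only and 20 with the kidney list shortened (38), and pairs higher in heart 45 and 130 (75). Without a heart peak stood 13.9% of the top 5%, 45.4% of the top 20% and 19.1% of the top 250 kidney peaks with ties (257) (29.3% of the top 10%), and without a kidney peak 0% and 14.5% of the top 5 and 20% of heart peaks (4.65%). A 5 kb window put 73.9% of pairs at start sites (64.3%). With the peak centre inside the window, CACGTG was in 54.9% of windows under shared pairs (47.7%) and 36.4% under kidney peaks without a heart peak (31.3%). The other 30 alternatives run for these results stayed within the interval or within 1.5 times of the value reported. Some of them had little or no room to move. Centres of shared peaks lay at most 186 bp apart, so a limit of 200 bp returned the same pairs. Demanding a larger overlap left the percentiles of the remaining pairs unchanged. None of the 113 pairs at least 25 points apart changed its direction where the setting allowed it. Ranking only the shared pairs left 60 of the 113 past 25 points.

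No paired analysis was possible because the replicates of each tissue were pooled into 1 list before deposit, and leaving out a replicate could not be run for the same reason. Without per-animal values or read depth, a site missing from a list cannot be told apart from a site too weak to be called.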
